A study of Homo sapiens with 2 samples.

Results

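The genes described here encode proteins of squamous differentiation and of the cornified envelope. They were chosen by name as rows of the deposited expression table (SPRR1A, SPRR1B, SPRR2A, SPRR2D, SPRR3, IVL, SCEL, TGM1, SFN and LY6D), and all 10 named genes were found among the 21382 genes of the table. RNA-Seq covered 2 untreated, established human prostate cancer (PCa) cell lines, namely RC77 T/E, with 1 library, and MDA PCa 2b, also with 1 library. The medium of RC77 T/E was a keratinocyte formula without serum, to which EGF and a pituitary extract were added. That of MDA PCa 2b was based on Ham's F-12, with EGF, fetal serum, hydrocortisone, cholera toxin and insulin among its additions. Cell line, medium and library therefore cannot be told apart, no value has a replicate error, and no difference below was tested. Expression is given in TPM, which scales the reads of each transcript by its length and by the size of its library.

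The cornified envelope is the cross-linked protein shell that replaces the plasma membrane of dying keratinocytes in stratified epithelia. Involucrin and the desmosome-linked plakins form its early scaffold, small proline-rich proteins are cross-linked onto it by transglutaminases, and loricrin, filaggrin and the late cornified envelope proteins are added last in the epidermis. Most of these structural proteins are encoded side by side on chromosome 1 in the epidermal differentiation complex. The normal prostate has basal and luminal epithelial cells but no cornified layer.

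The table has lost the decimal mark of most values of 1 TPM or more. The mark could be restored uniquely for IVL, TGM1, LY6D and SPRR1B. For the 6 other genes, values that differ by factors of 10 fit the table equally well, and all are given. An open mark changes the level of a gene but never whether it reaches 1 TPM, the threshold used here in each line. The study's own definition asked for expression in a minimum share of the samples and for a mean over samples of 1 TPM or more. The limit on the mean is reached by 8 of the 10 genes in these libraries, IVL and LY6D being the exceptions. A further limit concerns values of exactly 0. EEF1A1, a translation factor that every cell uses, is listed at 0 in MDA PCa 2b and at 2393 TPM in RC77 T/E. Of 20 genes that every cell uses, all 20 reached 1 TPM in RC77 T/E and 19, all but EEF1A1, did so in MDA PCa 2b. A gene is therefore only described as listed at 0.

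The lineage markers differed between the lines as follows. Of 15 basal epithelial markers, 14 had the higher value in RC77 T/E by 2-fold or more, among them KRT5 at 4027 TPM against 0.00435 TPM in MDA PCa 2b. Of 10 prostate luminal markers, 8 had the higher value in MDA PCa 2b by 2-fold or more. KLK3, the gene of prostate-specific antigen, stood there at 5323 TPM, against a listed 0 in RC77 T/E. The exceptions were the luminal keratins KRT8 and KRT18. Of 13 markers of fibroblasts, endothelium and leukocytes, 0 reached 1 TPM in MDA PCa 2b. In RC77 T/E 2 did, namely COL1A1 at 8.24 TPM and CD14 at 4.92 TPM.

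Of the 10 squamous genes, 9 had a value of 1 TPM or more in RC77 T/E, whereas 1 had such a value in MDA PCa 2b. Of the 9 others in MDA PCa 2b, 6 are listed at 0, which does not show that they lacked expression, and the contrast rests on these for 6 of the genes. Over all genes of the table, the shares at 1 TPM or more were 52.8% and 49.6%, and over its protein-coding genes 61.7% and 57.9%. The genes at 1 TPM or more in RC77 T/E were the 5 small proline-rich genes, IVL, SCEL, TGM1 and SFN, and the gene under it was LY6D. SFN was the gene that reached this level in MDA PCa 2b. The value in RC77 T/E was the higher of the pair for all 10 genes. With a pseudocount of 1 TPM, 9 of the 10 were higher by 2-fold or more in RC77 T/E, and 0 were so in MDA PCa 2b, beside 11.3% and 11.4% of all 21382 genes. Among the 11624 genes whose mean reached 1 TPM, the corresponding shares were 19.4% and 20.0%. The log2 ratio, RC77 T/E over MDA PCa 2b, had a median of 2.84 over the 10 genes, with each open mark at its lowest position, a median of -0.15 over the 11624 genes, and a median of 0 over all 21382. It was 1.46 over the 4 squamous genes that are above 0 in both lines.

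**Figure D1:**
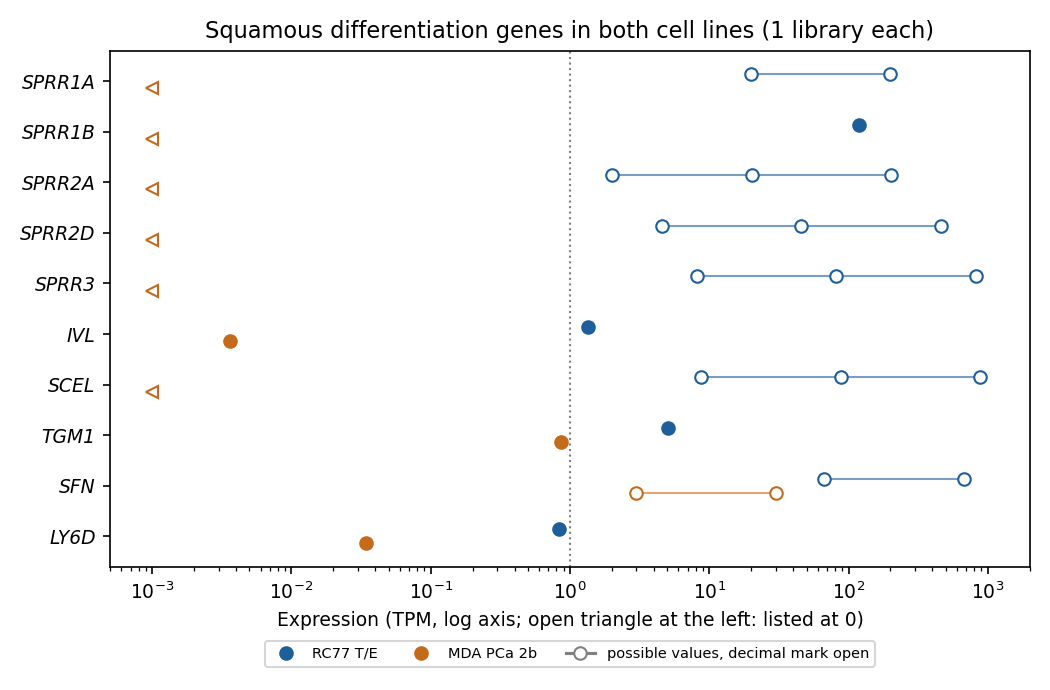
TPM of the 10 squamous genes (log axis) in RC77 T/E (blue) and MDA PCa 2b (orange), 1 library each. Filled points are fixed values, open points joined by a line are the values possible where the decimal mark is open, open triangles mark genes listed at 0, and the dotted line is 1 TPM. The RC77 T/E values of 9 genes lie right of the line, and only SFN does so in MDA PCa 2b.

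The small proline-rich proteins are short envelope precursors built of proline-rich repeats, with glutamine- and lysine-rich ends that transglutaminases join. All 5 studied here are listed at 0 in MDA PCa 2b, as are 6 of the 10 squamous genes in all, against 0 of the 10 in RC77 T/E. Over all 21382 genes, a value of 0 is listed for 5775 (27.0%) in MDA PCa 2b and for 5729 in RC77 T/E. In MDA PCa 2b it is listed for 2.15% of the 11286 genes that reached 1 TPM in RC77 T/E. The reverse share, of genes that reached 1 TPM in MDA PCa 2b, was 1.77%. SPRR1B (chromosome 1 of GRCh38, 153031203 to 153032900) had 118.8 TPM in RC77 T/E, a value whose mark is fixed. Depending on the open marks of other genes, between 358 and 4404 genes of the table were higher. SPRR1A (152984081 to 152985814) had 19.8 or 198 TPM. SPRR3 (153001747 to 153003856) had 8.18, 81.8 or 818 TPM. SPRR2D (153039732 to 153041931) had 4.58, 45.8 or 458 TPM. SPRR2A (153056120 to 153057512) had 2.02, 20.2 or 202 TPM. The sum of the 5 genes in RC77 T/E thus lay between 153 and 1794 TPM.

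Whether these values belong to single genes depends on how alike the genes are, so the coding sequences of the SPRR2 genes at 1 TPM or more, and of the SPRR1 pair, are shown. In the GENCODE release 29 annotation of GRCh38 each lies in a single exon, which is exon 2 of 2 in SPRR2A, SPRR2D, SPRR2E and SPRR1B. SPRR2A (minus strand, chr1:153056517-153056735), SPRR2D (minus strand, chr1:153040128-153040346) and SPRR2E (minus strand, chr1:153093533-153093751) each have 219 coding bases, and capitals mark bases that differ from SPRR2A.
SPRR2A: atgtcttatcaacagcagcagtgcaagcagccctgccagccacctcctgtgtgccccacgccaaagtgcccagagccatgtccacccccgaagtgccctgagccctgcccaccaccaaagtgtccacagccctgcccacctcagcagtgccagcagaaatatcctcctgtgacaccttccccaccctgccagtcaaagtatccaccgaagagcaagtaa
SPRR2D: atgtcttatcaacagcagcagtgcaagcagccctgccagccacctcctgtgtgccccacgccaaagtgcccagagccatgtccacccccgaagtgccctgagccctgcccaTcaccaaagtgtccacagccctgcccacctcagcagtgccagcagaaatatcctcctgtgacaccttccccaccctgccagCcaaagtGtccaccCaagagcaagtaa
SPRR2E: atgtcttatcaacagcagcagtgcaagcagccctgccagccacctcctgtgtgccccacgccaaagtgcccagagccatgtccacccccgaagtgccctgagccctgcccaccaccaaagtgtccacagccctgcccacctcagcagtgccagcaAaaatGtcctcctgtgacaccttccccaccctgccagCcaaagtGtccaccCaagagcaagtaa
SPRR1B (plus strand, chr1:153032346-153032615) and SPRR1A (plus strand, chr1:152985231-152985500) have 270 coding bases, and capitals mark bases of SPRR1A that differ from SPRR1B.
SPRR1B: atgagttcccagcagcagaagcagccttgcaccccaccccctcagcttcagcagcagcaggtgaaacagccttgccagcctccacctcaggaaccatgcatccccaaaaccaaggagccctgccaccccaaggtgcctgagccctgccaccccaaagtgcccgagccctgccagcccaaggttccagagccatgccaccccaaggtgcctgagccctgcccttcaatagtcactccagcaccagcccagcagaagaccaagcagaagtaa
SPRR1A: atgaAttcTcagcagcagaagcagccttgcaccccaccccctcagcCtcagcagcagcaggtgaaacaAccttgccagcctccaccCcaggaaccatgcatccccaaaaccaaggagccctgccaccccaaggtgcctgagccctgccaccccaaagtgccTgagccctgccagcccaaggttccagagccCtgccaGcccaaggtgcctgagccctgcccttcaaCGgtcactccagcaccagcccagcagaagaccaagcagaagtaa
SPRR2D differed from SPRR2A at 4 bases and SPRR2E at 5, and SPRR1A differed from SPRR1B at 10, an identity of 96.3%. The coding sequence of SPRR2B, not shown, was 99.5% identical to that of SPRR2A.

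Of all 31-base words in the annotated coding transcripts of SPRR2A, untranslated ends included, 51.3% also occurred in transcripts of another gene, most often SPRR2D and SPRR2B. The share was 29.9% for SPRR2D, 10.7% for SPRR1B and 26.2% for SPRR1A, whose annotated transcript holds the coding part only. It was 0.00% for SPRR3, IVL, SCEL, TGM1 and LY6D and 1.17% for SFN. How the authors' values divide reads among such near copies is not stated, so the split between SPRR2A, SPRR2B, SPRR2D and SPRR2E, and to a lesser degree between SPRR1A and SPRR1B, is uncertain. The closest relatives had unlike values within the RC77 T/E library. SPRR2B and SPRR4 are listed at 0 there, SPRR2C had 0.149 TPM, SPRR2F had 0.105 TPM and SPRR2G had 0.278 TPM, whereas SPRR2E had 3.46, 34.6 or 346 TPM. All 6 of the other small proline-rich genes in the table are listed at 0 in MDA PCa 2b.

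**Figure D2:**
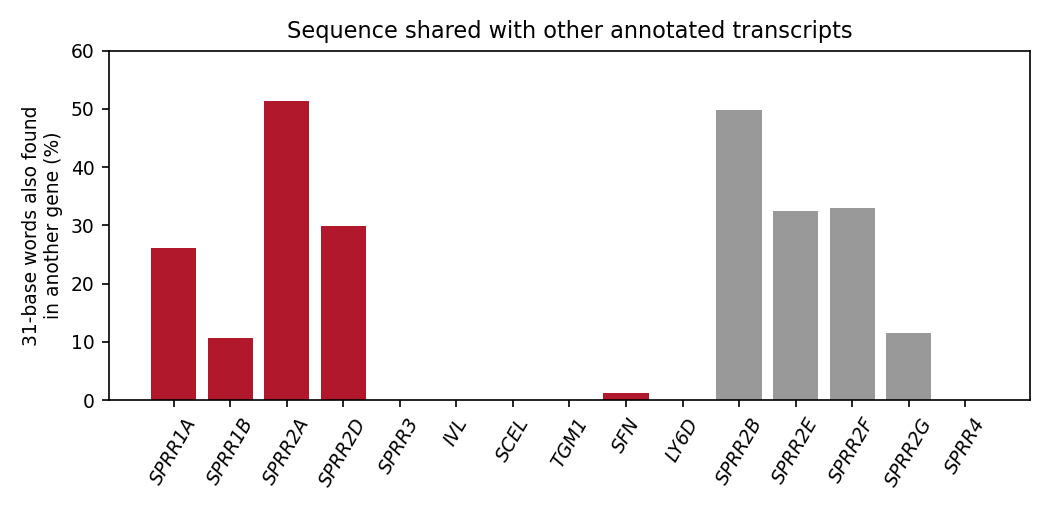
Share of the 31-base words in each gene's annotated coding transcripts that also occur in a transcript of another gene (red, the 10 squamous genes; grey, other small proline-rich genes). The share is highest for SPRR2A at 51.3% and SPRR2B at 49.9%, and it is 0.00% for SPRR3 and IVL.

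IVL encodes involucrin, the glutamine-rich precursor that is among the earliest proteins of the envelope. IVL (chromosome 1, 152908546 to 152911886) had 1.36 TPM in RC77 T/E against 0.00363 TPM in MDA PCa 2b, a log2 ratio of 1.23 with a pseudocount of 1 TPM. It was thus just above the threshold in RC77 T/E, at a rank below at least 10821 other genes and under every possible value of the 5 small proline-rich genes. SCEL encodes sciellin, a further envelope precursor, and lies outside the complex, on chromosome 13 from 77535674 to 77645263. It had 8.79, 87.9 or 879 TPM in RC77 T/E, with a listed 0 in MDA PCa 2b. SCEL overlaps an antisense RNA gene, which was not analysed here. The libraries were directional, but the sources do not say if strand entered the TPM values.

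TGM1 encodes the membrane-bound transglutaminase that cross-links the envelope of keratinocytes. TGM1 (chromosome 14, 24249114 to 24264432) had 5.05 TPM in RC77 T/E against 0.865 TPM in MDA PCa 2b, 5.84 times as much. With a pseudocount of 1 TPM, the log2 ratio was 1.70. Among the 7 transglutaminase genes, only TGM1 was higher by 2-fold or more in RC77 T/E. TGM2, the widely expressed tissue transglutaminase, was higher in MDA PCa 2b by 10.4 times, at 27.6 against 2.65 TPM or 10 times these values. TGM3, the epidermal and hair follicle enzyme, had 2.10 TPM in MDA PCa 2b against 0.0346 TPM in RC77 T/E, and TGM4, the prostate-specific enzyme, 1.47 against 0.265 TPM. TGM5, TGM6 and TGM7 stayed under 0.1 TPM in both lines.

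SFN encodes 14-3-3 sigma (stratifin), a phosphoprotein-binding adaptor of stratified epithelia. SFN (chromosome 1, 26863149 to 26864456, outside the complex) had 67.1 TPM in RC77 T/E against 3.0 TPM in MDA PCa 2b, or 671 and 30.0 TPM at the other position of the mark, 22.4 times as much at either. With a pseudocount of 1 TPM, the log2 ratio was 4.09 at the lower position. The 6 other 14-3-3 genes (YWHAB, YWHAE, YWHAG, YWHAH, YWHAQ and YWHAZ) reached 1 TPM in both lines, and 0 of the 6 were apart by 2-fold or more. LY6D, a membrane-anchored surface protein of stratified epithelia, was the squamous gene with the lowest value in RC77 T/E. LY6D (chromosome 8, 142784882 to 142786539) had 0.830 TPM in RC77 T/E against 0.0345 TPM in MDA PCa 2b. The log2 ratio of LY6D, with the same pseudocount, was 0.82. LY6D overlaps a gene on the opposite strand that was not analysed here. Among 16 relatives of LY6D, 5 were higher by 2-fold or more in RC77 T/E, and 4 were so in MDA PCa 2b. LYPD3, a surface protein of suprabasal keratinocytes, had 68.5 TPM in RC77 T/E against 3.16 TPM in MDA PCa 2b, or 10 times these values. LY6K had 17.9 against 0.00663 TPM, PLAUR, the urokinase receptor, 52.9 against 0.329 TPM, and CD59, a complement inhibitor, was higher by 5.65 times. PSCA, prostate stem cell antigen, ran the other way, with 0.844 TPM in RC77 T/E against 181.6 TPM in MDA PCa 2b, as did LYPD6B, LY6E and LYNX1.

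**Figure D3:**
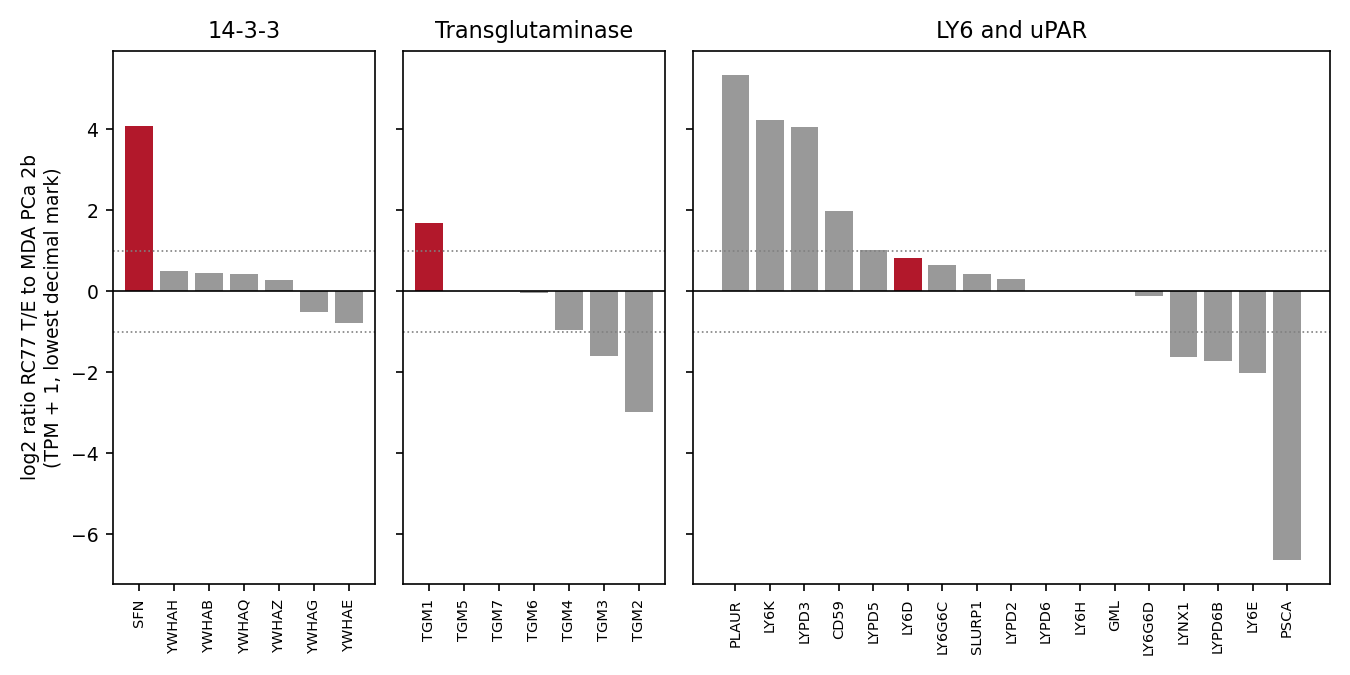
Log2 ratio, RC77 T/E over MDA PCa 2b (TPM plus 1, open marks at their lowest position, 1 library per line) for the 14-3-3, transglutaminase and LY6 families, with SFN, TGM1 and LY6D in red and dotted lines at 2-fold. SFN stands at 4.09 with its 6 relatives inside the dotted lines, TGM1 is the only transglutaminase above them, and LY6D lies between relatives on either side.

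In order of level in RC77 T/E, LY6D was below IVL, and IVL below TGM1, which was below SPRR1B. SFN, SPRR1A, SPRR3 and SCEL exceeded TGM1 at every possible position of their marks. The order of SPRR2A and SPRR2D relative to TGM1, and of all 6 genes with open marks relative to SPRR1B, could not be set. With 1 library, it is not known which neighbours in this order differ beyond the spread between cultures.

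The regions before the start sites of these genes were searched for TGANTCA, a motif bound by AP-1 factors, and for TATAAA, the TATA box, since the genes differ in the same direction. RefSeq entries on GRCh38.p14 existed for 7 of the 10 genes. SPRR2D, TGM1 and LY6D had none. TGANTCA, which reads TGANTCA on the opposite strand too, occurred in the 250 bases before the start of all 7 genes (SPRR1A, SPRR1B, SPRR2A, SPRR3, IVL, SCEL and SFN), beside 6.57% of 35116 promoters of the same length. The stricter AP-1 consensus TGACTCA, on either strand, occurred in 6 of the 7, beside 4.20%, since SFN held TGATTCA only. TATAAA on the strand of the gene occurred in 4 of the 7, beside 6.80%. For the genes of the complex these 250 bases are shown in the direction of transcription with matches in capitals, for SPRR1A (plus strand, chr1:152983831-152984080), SPRR1B (plus strand, chr1:153030953-153031202), SPRR3 (plus strand, chr1:153001499-153001748), IVL (plus strand, chr1:152908296-152908545) and SPRR2A (minus strand, chr1:153057513-153057762). SPRR2B (minus strand, chr1:153071612-153071861) is shown as a near copy of SPRR2A. It is listed at 0 in both lines, but with 49.9% of its words shared, that 0 is as uncertain as the value of SPRR2A.
SPRR1A: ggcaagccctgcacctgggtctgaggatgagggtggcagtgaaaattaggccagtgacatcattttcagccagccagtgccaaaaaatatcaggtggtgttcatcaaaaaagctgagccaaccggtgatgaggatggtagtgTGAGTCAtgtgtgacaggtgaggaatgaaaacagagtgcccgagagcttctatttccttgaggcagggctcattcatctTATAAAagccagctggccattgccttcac
SPRR1B: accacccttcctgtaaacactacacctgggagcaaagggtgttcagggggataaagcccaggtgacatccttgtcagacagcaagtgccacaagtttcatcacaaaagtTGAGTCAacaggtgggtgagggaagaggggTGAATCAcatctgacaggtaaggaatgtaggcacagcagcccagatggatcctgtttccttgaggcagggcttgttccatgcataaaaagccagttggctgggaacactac
SPRR3: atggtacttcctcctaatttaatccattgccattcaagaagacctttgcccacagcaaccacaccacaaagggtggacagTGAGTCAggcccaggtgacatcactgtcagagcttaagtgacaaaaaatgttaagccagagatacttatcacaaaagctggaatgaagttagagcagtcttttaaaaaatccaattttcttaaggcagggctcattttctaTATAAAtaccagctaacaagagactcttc
IVL: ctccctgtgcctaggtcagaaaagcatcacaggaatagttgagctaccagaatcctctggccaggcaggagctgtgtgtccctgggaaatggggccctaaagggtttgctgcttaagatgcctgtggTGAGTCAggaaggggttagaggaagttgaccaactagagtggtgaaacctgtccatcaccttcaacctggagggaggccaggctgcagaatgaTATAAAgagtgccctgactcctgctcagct
SPRR2A: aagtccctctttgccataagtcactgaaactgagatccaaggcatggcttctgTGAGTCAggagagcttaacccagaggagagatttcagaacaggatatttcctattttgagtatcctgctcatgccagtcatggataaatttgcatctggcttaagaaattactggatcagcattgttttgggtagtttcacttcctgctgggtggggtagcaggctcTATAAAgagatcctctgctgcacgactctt
SPRR2B: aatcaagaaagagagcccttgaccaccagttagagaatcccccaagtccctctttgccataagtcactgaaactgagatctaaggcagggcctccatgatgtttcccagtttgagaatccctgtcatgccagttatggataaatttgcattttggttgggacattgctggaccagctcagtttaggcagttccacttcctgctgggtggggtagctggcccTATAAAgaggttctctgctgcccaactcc
The TGANTCA match began 108 bases before the start in SPRR1A, 141 and, as TGAATCA, 111 bases in SPRR1B, 170 bases in SPRR3, 123 bases in IVL and 197 bases in SPRR2A. TATAAA began 29 or 30 bases before the start in SPRR1A, SPRR3, IVL and SPRR2A. In the SPRR2B window TATAAA was found and TGANTCA was not. Of the other relatives with an entry, SPRR2F and SPRR2G, both under 1 TPM, held TGANTCA, in SPRR2G as TGAATCA, and SPRR4 did not. A match is a run of letters and not evidence of binding.

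The epidermal differentiation complex was taken as the 60 protein-coding genes of the table between S100A10 and S100A1, chr1:151982915-153632039. RC77 T/E had 23 of the 60 at 1 TPM or more and MDA PCa 2b had 8. Both shares are below those of all protein-coding genes of the table, which were 61.7% and 57.9%. The 23 genes fell into separate blocks. The S100 genes at both ends contributed 14 of 16, and the block from IVL to SPRR2E contributed 7 of its genes, namely the 6 squamous genes and SPRR2E. Between S100A11 and IVL, only LCE3D, at 2.67, 26.7 or 267 TPM, and CRCT1, at 3.95, 39.5 or 395 TPM, reached 1 TPM. Of the 18 LCE genes, which encode late cornified envelope proteins, 11 are listed at 0 in both lines. Of the 7 genes of the filaggrin type, 0 reached 1 TPM in RC77 T/E and 2, FLG and HRNR, did so in MDA PCa 2b. The others stayed under 1 TPM in both lines. Of these, FLG2 had the higher value in MDA PCa 2b, and TCHH, TCHHL1 and CRNN in RC77 T/E. RPTN is listed at 0 in both.

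**Figure D4:**
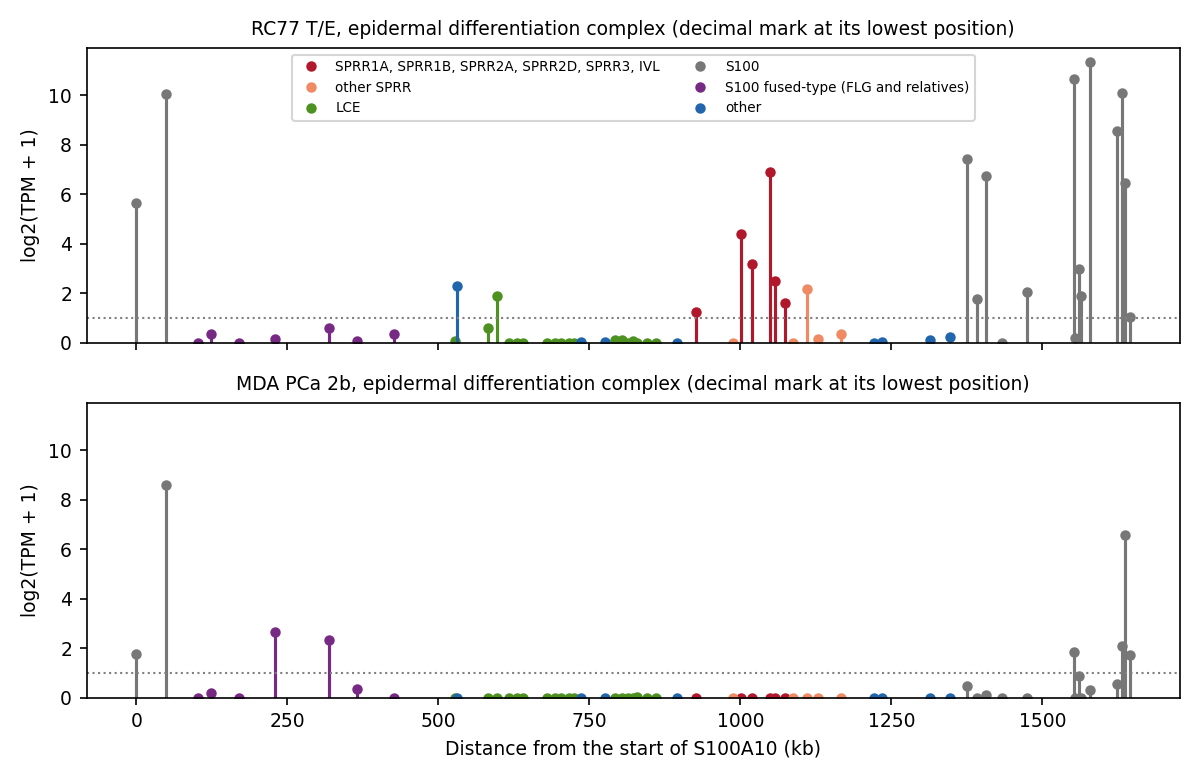
Expression along the epidermal differentiation complex in RC77 T/E (top) and MDA PCa 2b (bottom), as log2(TPM + 1) with open marks at their lowest position, against the distance from the start of S100A10 in kb. Each stem is a gene, coloured by family, and the dotted line is 1 TPM. In RC77 T/E stems rise over the line at the S100 blocks, at CRCT1 and LCE3D, and in the IVL to SPRR2E block. In MDA PCa 2b, 8 genes of S100 and filaggrin type do so.

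Of the other early scaffold genes, RC77 T/E had 8 of 9 at 1 TPM or more and MDA PCa 2b had 6. By 2-fold or more, 5 were higher in RC77 T/E and 1, CNFN, was lower. ANXA1, annexin A1, had 714.8 TPM in RC77 T/E against 0.211 TPM in MDA PCa 2b, and CSTA, the protease inhibitor cystatin A, 161 against 0.676 TPM. The S100 proteins S100A10 and S100A11 were also among the 5. PPL, the plakin periplakin, was the fifth, higher by 9.32 times, at 35.2 against 3.78 TPM or 10 times these values. Its partner EVPL, envoplakin, was lower in RC77 T/E by 1.43 times and CNFN, cornifelin, by 4.82 times. CSTB, cystatin B, had 130.2 TPM against 120.5 TPM.

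Of 31 late epidermal envelope genes in the table, 24 had values under 1 TPM in both lines. Many of these are listed zeros, with 21 of the 31 at 0 in MDA PCa 2b, 13 in RC77 T/E and 12 in both. In RC77 T/E the 4 that reached 1 TPM were DMKN (dermokine) at 63.6 TPM, CDSN (corneodesmosin) at 2.31 TPM, SBSN (suprabasin) at 1.62 TPM and LCE3D. In MDA PCa 2b the 3 were FLG (filaggrin) at 4.07 TPM, HRNR (hornerin) at 5.30 TPM and CALML5 at 1.47 TPM. FLG had 0.529 TPM and HRNR 0.126 TPM in RC77 T/E. Loricrin had no row under the symbols LOR or LORICRIN and was not analysed here. KRT1, the suprabasal keratin of the epidermis, had 0.0189 TPM in RC77 T/E against 0.00466 TPM in MDA PCa 2b, and its partner KRT10 was lower in RC77 T/E by 2.09 times. DSG1 and DSC1, the desmosomal cadherins of the upper epidermis, stayed under 0.01 TPM in both lines.

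Of 10 suprabasal and activation keratins, 4 were higher in RC77 T/E by 2-fold or more, all of the activation type that keratinocytes make in wounds and in culture. They were KRT6A at 1454 TPM and KRT6B at 4.44, 44.4 or 444 TPM, both listed at 0 in MDA PCa 2b, KRT16 at 73.1 against 0.0335 TPM, and KRT17 at 1608 against 0.0571 TPM. KRT2 reached 1 TPM in MDA PCa 2b alone, at 1.15 TPM, and KRT80 was at 1 TPM or more in each. KRT6A and KRT6B are near copies, so their split is uncertain. Genes of squamous mucosa gave a mixed picture, with 4 of 16 at 1 TPM or more in each line. EMP1, a membrane protein, was higher by 56.6 times in RC77 T/E, and ECM1, a secreted matrix protein, had 19.7 TPM against 0.275 TPM. ANXA9, an annexin, had 7.86 TPM in MDA PCa 2b against 0.635 TPM in RC77 T/E, and PAX9, a transcription factor, 2.54 against 1.22 TPM. The mucosal keratins KRT4 and KRT13 and the mucosal envelope protein CRNN stayed under 1 TPM in both, and MAL is listed at 0 in both.

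**Figure D5:**
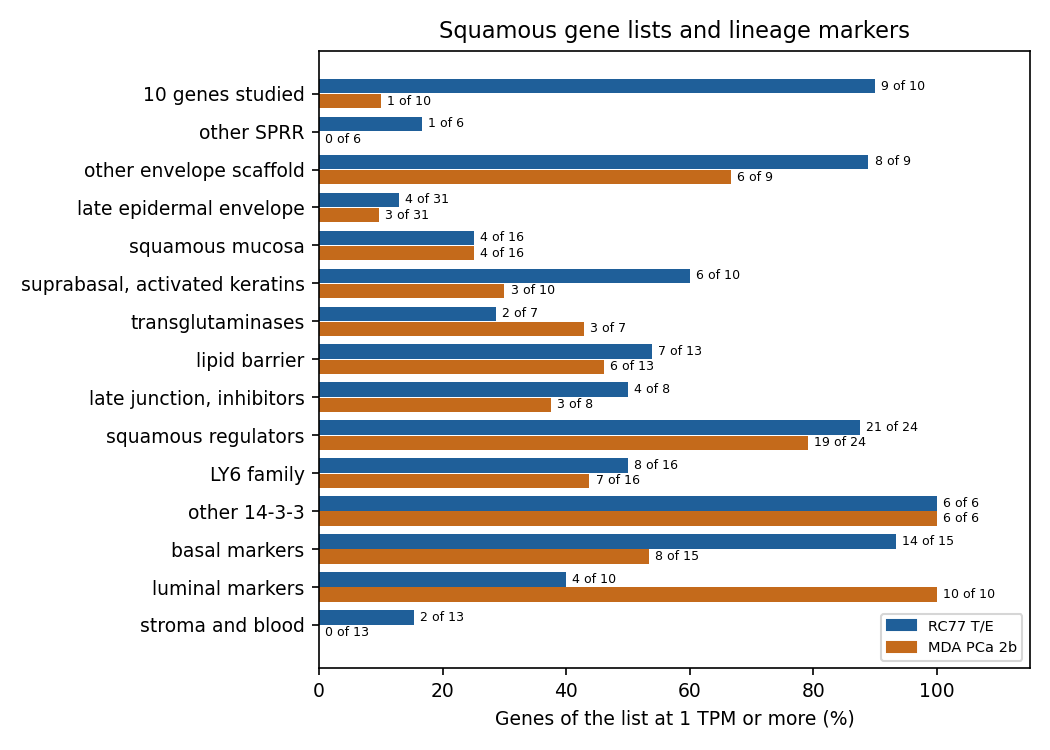
Share of the genes of each list at 1 TPM or more in RC77 T/E (blue) and MDA PCa 2b (orange), with the counts beside the bars. RC77 T/E has 9 of the 10 squamous genes and 4 of 31 late epidermal envelope genes, and MDA PCa 2b has 1 and 3.

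Most regulators of squamous differentiation, transcription factors and the receptor NOTCH1, reached 1 TPM in each line, but not all did. Of 24, RC77 T/E had 21 at 1 TPM or more and MDA PCa 2b had 19. By 2-fold or more, 10 were higher in RC77 T/E and 9 were lower. The AP-1 subunit FOSL1 had 43.2 TPM in RC77 T/E against 0.147 TPM in MDA PCa 2b. FOSL2 and JUNB, further AP-1 subunits, were higher in RC77 T/E by 4.72 and 4.41 times, and the receptor NOTCH1 by 8.55 times. ELF3, an epithelial ETS factor, was lower in RC77 T/E by 21.7 times and EHF, another ETS factor, by 2.40 times. CEBPA, a C/EBP factor, had 2.67 TPM there against 10.1 TPM in MDA PCa 2b. Chosen after their values were seen, TP63, a regulator of stratified epithelia, had 5.17 or 51.7 TPM in RC77 T/E, with a listed 0 in MDA PCa 2b. ZNF750, which acts downstream of p63 in keratinocytes, had 1.83 against 0.0365 TPM. KLF4 differed little, at 8.56 TPM in RC77 T/E against 7.17 TPM in MDA PCa 2b.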

How the data were processed

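Total RNA of the untreated PCa lines RC77 T/E and MDA PCa 2b was sequenced as paired-end, directional libraries. The authors deposited TPM per locus for each line, with the mean and standard error of both, Ensembl identifiers and GRCh38 positions. The submitters' processing notes name CASAVA, FastQC 0.11.9, Trimmomatic 0.38 and Salmon 1.2.0, without their roles. The annotation is not given in the sources used here. No counts were used, so depth and counting precision are unknown.

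The RC77 T/E column has commas in 11082 rows and the MDA PCa 2b column in 10361, where values from 1 TPM upward that have 3 decimals or more lost their mark. Marks preceded by 1 to 3 digits and followed by 3 or more were tried and kept where the deposited mean and standard error were matched. Of 22791 rows, 16284 had 1 position and 6507 had 2 or 3. In 5000 simulated rows, the 4056 restored to 1 position were all true, and the positions of all 5000 included the true one. The simulated rows lost their marks by the same rule that the restoration assumes. They therefore check its code and not whether the rule holds for the deposited values. The design had assumed plain TPM.

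The 22704 loci were summed by symbol, and open marks were set to the lowest position for counts, ratios and sums. The lowest position is a convention and not an estimate of the level. All genes together summed to 682469 TPM in RC77 T/E at the lowest positions and 2.14e+06 TPM at the highest. In MDA PCa 2b these sums were 751125 and 2.42e+06 TPM. The log2 ratio divided RC77 T/E by MDA PCa 2b after adding 1 TPM to each, which understates changes of low genes. With 1 library per line, 2-fold served as a rule of size. The 10 genes, the companion lists and the alternative settings (thresholds, pseudocount, scaling, positions of the marks) were chosen with earlier results of these data known. Of each list, genes at 1 TPM or more in a line are named, or, where more than 8, the 4 highest per line, besides FLG, KRT1 and KRT10. The marker lists are given by counts with examples, as are genes used by every cell, and some further genes are named for contrast. Of 210 list genes in GENCODE release 29, 209 started within 100 kb of the deposited start. SPRR5, SLURP2 and loricrin were not analysed here, and some genes of the lists are not reported here. Promoters are RefSeq's. Coding sequences, compared in place of proteins, and 31-base words come from GENCODE release 29. Python 3.11.15, numpy 2.4.6 and matplotlib 3.10.9 were used.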

Additional observations from a re-analysis of the deposited data

How the results depend on the processing

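The number of squamous genes at the threshold in MDA PCa 2b was 1 at 1 TPM, 2 at 0.5 TPM and 0 at 5 TPM with the lowest decimal marks, and 1 at 5 TPM with the highest, where SFN stands at 30.0 TPM. In RC77 T/E the count of 9 stayed between 6 and 10 under the thresholds of 0.5 and 5 TPM. The number higher by 2-fold or more in RC77 T/E was 10 with a pseudocount of 0.1 TPM and 9 after median centring, upper quartile scaling, use of the highest decimal marks or use of the largest locus, and 0 were higher in MDA PCa 2b under each. The median log2 ratio of 2.84 became 4.99 with a pseudocount of 0.1 TPM and 7.27 with the highest decimal marks, because 6 of the genes are listed at 0 in MDA PCa 2b and their ratio grows with the level or with a smaller pseudocount. Over the genes not listed at 0, a setting chosen after seeing the data, it was 1.46. Of 50 recomputed ratios of single squamous genes, 0 changed direction and 12 moved by more than 1.5 times. No setting could reverse a gene listed at 0 in MDA PCa 2b, and the smallest difference of the others was 5.84 times. That no gene reversed, or was higher in MDA PCa 2b, was therefore largely fixed in advance. Of 30 recomputed counts of the companion lists, 3 moved by more than 1.5 times at 0.5 TPM. Leaving out a replicate and a paired fit could not be run. No paired analysis was possible because there was 1 library per line. Depth is unknown, so no limit of detection can be given for values near 0.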

Other observations

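Genes of the epidermal lipid barrier differed in both directions. Of 13 in the table, RC77 T/E had 7 at 1 TPM or more and MDA PCa 2b had 6. By 2-fold or more, 5 were higher in RC77 T/E and 3 were lower. CERS3, the ceramide synthase for very long acyl chains, had 6.87 TPM in RC77 T/E against 0.0165 TPM in MDA PCa 2b. ELOVL4, a fatty acid elongase, was higher in RC77 T/E by 5.04 times and UGCG, which makes glucosylceramide, by 3.36 times. SULT2B1, a cholesterol sulfotransferase, was lower in RC77 T/E by 15.1 times. CYP4F22, the hydroxylase of these acyl chains, had 6.86, 68.6 or 686 TPM in MDA PCa 2b, with a listed 0 in RC77 T/E.

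Inhibitors of envelope proteases and desquamation were also split. SPINK5, which encodes the kallikrein inhibitor LEKTI, had 7.01 TPM in MDA PCa 2b against 0.180 TPM in RC77 T/E. CST6, cystatin M/E, had 13.6 or 136 TPM in RC77 T/E, with a listed 0 in MDA PCa 2b. PI3, elafin, which is itself cross-linked into envelopes, had 131.4 TPM in MDA PCa 2b against 146.5 TPM in RC77 T/E. SLPI, a secreted elastase inhibitor, was lower in RC77 T/E by 2.46 times.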
